A study of Drosophila melanogaster with 6 samples.

Results

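Among the array probes for annotated Drosophila transcripts, 110 read at least 2-fold brighter in HB10 cells after 24 h at 14 °C than in cells kept at 24 °C. They were picked from the authors' processed log2 values by a rule with 4 parts. The probe carried a FlyBase transcript identifier (FBtr), it was well above background on all 6 arrays, its mean at 14 °C exceeded that at 24 °C by 1 or more, and its 3 values at 14 °C all lay above its 3 values at 24 °C. Of the 32162 probes on the array, 21498 carried such an identifier and 13545 of these were well above background on all arrays. Of the 13545, 115 (0.849%) met the rule. From a list of 7 probes to be left out, 5 met the rule and 2 did not, which leaves 110 probes for 100 transcripts. Because the difference between the temperatures chose these probes, their differences are given as a description and support nothing by themselves.

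HB10 is a D. melanogaster cell line made from embryos that expressed the activated Ras of UAS-Ras85D.V12 throughout the body, driven by Act5C-GAL4, so that cells of both groups carry these transgenes. According to the study the line resembles the precursors of adult muscles. Cells cooled to 14 °C for 24 h were compared with cells kept at 24 °C throughout, with 3 biological replicates of each. Replicate 1 of both groups was hybridized on one slide, and replicates 2 and 3 of both groups on a second one. Of the 43602 gene spots, 57.7 to 59.4% per array stood well above background, and saturated spots numbered 0. Replicate 2 at 14 °C was the dimmest array before normalization. The upper quartile of its uncorrected spot brightness was 923, against 1394 to 1684.5 on the other arrays. The mesoderm factor gene twi read 12.53 to 14.04 (log2) on its 2 probes over the 6 arrays. Of the other muscle precursor markers with a named probe, ct read 12.70 to 13.18 and vg only 8.29 to 9.15. The probe of the hemocyte factor gene srp was well above background on 0 arrays. Of the markers listed, 3 of 7 for adult muscle precursors and 1 of 8 for hemocytes had a probe with a name.

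Flies are ectotherms, so that the temperature of their cells follows that of the surroundings. Cooling slows enzymes, stiffens membranes and changes the rates at which transcripts are made, processed and degraded. The level of a transcript on an array is the outcome of all of these steps. An array probe reads only the stretch of the transcript that it is complementary to, so that probes for different parts of a gene can read different sets of transcript isoforms. In RNA from a whole culture, a change in the number of cells of a kind and a change in the RNA of each cell cannot be told apart.

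Values were recomputed from the scanner files and are log2 brightness after background correction and quantile normalization, in the order of replicates 1, 2 and 3. Differences are 14 °C minus 24 °C on this scale, with the standard error (SE) from limma. Over the 110 members the median difference was 1.12, or 2.17-fold, and the range was 0.90 to 2.63. Over all 13545 detected FBtr probes the median was -0.02, and the central 90% lay between -0.49 and 0.51. On these recomputed values 85 of the 110 members still differed by 1 or more, as did 0.601% of the 18789 probes tested. The other 25 lay between 0.90 and 1. With an offset of 0 in place of 50 in the background correction, all 110 were at or above 1. With the arrays scaled by the median of spots above background in place of quantile normalization, 65 were. In 110 of 110 members the groups did not overlap, against 19.5% of the probes tested. In limma, 84 of the 110 were called higher at an adjusted p under 0.01 and at least 2-fold, against 0.591% of the probes tested. With the median scaling named above, limma called 0 members and 0 of all probes tested. The rule used the same contrast, so nothing is read from these shares.

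**Figure D1:**
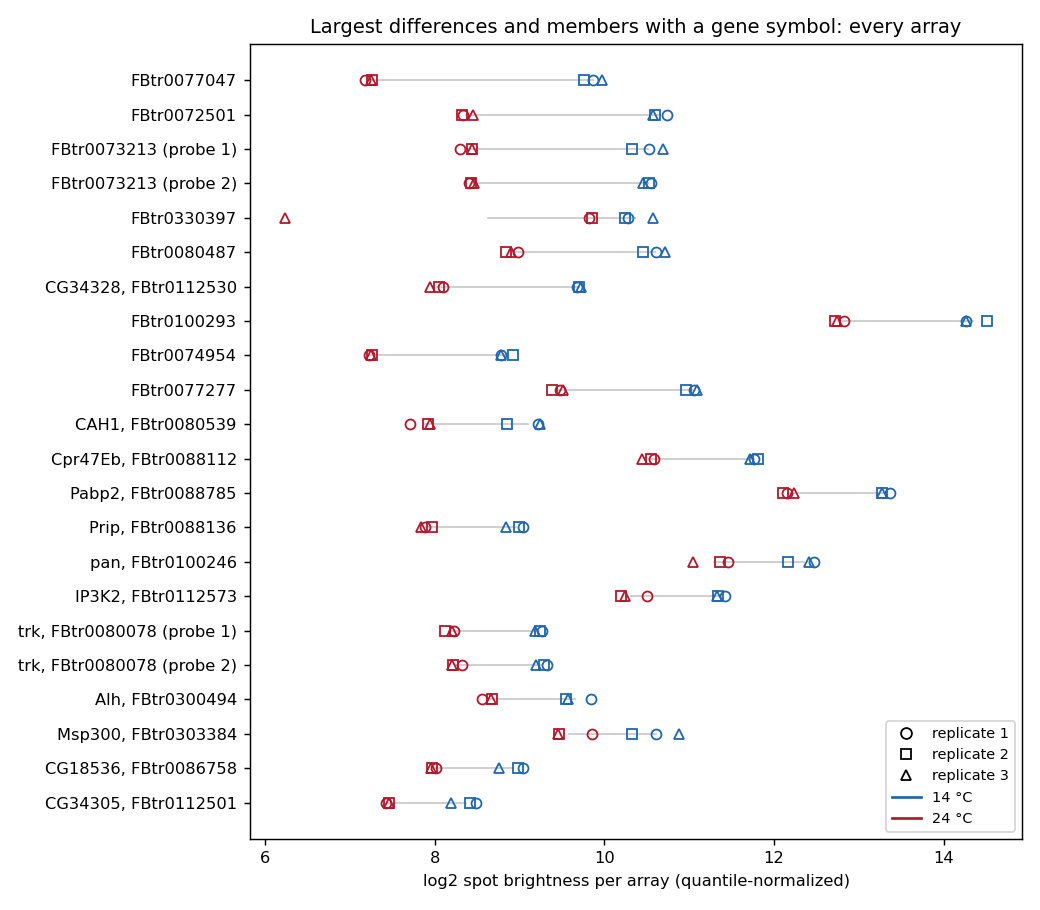
Log2 spot brightness on each of the 6 arrays (x axis) for the 10 members with the largest difference and for the members with a gene symbol, blue for 14 °C and red for 24 °C, with a marker shape for each replicate number and a grey line between the group means. In each row the 3 blue points lie to the right of the 3 red ones, and the row of FBtr0330397 has 1 red point at 6.23 that lies far from the other two.

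The largest difference belonged to FBtr0077047. Its probe read 9.86, 9.76 and 9.98 at 14 °C and 7.18, 7.26 and 7.25 at 24 °C. This is a difference of 2.63 (SE 0.08), or 6.21-fold. The uncorrected brightness of the spot was 546.5 to 1049 at 14 °C and 86.5 to 111 at 24 °C, where it stood near the local background of 37 to 46. The size of the difference therefore depends on the background correction, and it was 3.26 with an offset of 0 and 4.52 with the signal that the scanner software had corrected itself. A second probe of this transcript read 9.09, 9.37 and 9.18 against 7.20, 6.96 and 6.92, a difference of 2.19. It was above background on 1 of the 3 arrays at 24 °C and therefore is no member.

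FBtr0072501 followed with 10.73, 10.60 and 10.58 at 14 °C and 8.34, 8.33 and 8.45 at 24 °C, a difference of 2.27 (SE 0.08). FBtr0073213 was read by 2 members. The first gave 10.53, 10.33 and 10.70 against 8.30, 8.44 and 8.45, and the second 10.55, 10.53 and 10.46 against 8.41, 8.43 and 8.46. Their differences of 2.13 and 2.08 lie within 0.05 of each other. On the recomputed values these 4 members differed by 2 or more, that is at least 4-fold. The number depends on the background correction, and it was 6 with an offset of 0 and 17 on the signal corrected by the scanner software. With that signal the fold difference was over 1.5 times larger in 30 of the 110 members and over 1.5 times smaller in 1.

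The fifth place belonged to FBtr0330397, and it rests on 1 array. Its single spot read 10.28, 10.24 and 10.58 at 14 °C. At 24 °C it read 9.82 and 9.85 on replicates 1 and 2 but 6.23 on replicate 3, so that the groups do not overlap and the difference is 1.73 (SE 0.79, adjusted p = 0.149 in limma). The uncorrected brightness of that spot on replicate 3 was 1025, above the 844 and 902 of replicates 1 and 2. The local background of the same spot was 1229, against 26.5 to 55 for the other 109 members over all arrays, and the scanner software had marked this background as an outlier. Without replicate 3 at 24 °C the difference was 0.53. With the signal that the scanner software had corrected itself it was 0.59, and in both cases it falls short of a doubling. In the authors' processed values this array read 5.62 and the difference was 1.95, which placed the probe under the rule.

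Further differences above 1.5 were found for 8 more members. FBtr0080487 read 10.61, 10.46 and 10.71 against 8.98, 8.84 and 8.90, a difference of 1.69 (SE 0.09). CG34328, a gene on the X chromosome, read 9.68, 9.70 and 9.72 against 8.10, 8.05 and 7.94, a difference of 1.67 (SE 0.08). With an SD of 0.02 its 3 values at 14 °C lie close together. FBtr0100293 read 14.27, 14.52 and 14.26 against 12.82, 12.72 and 12.74, a difference of 1.59 (SE 0.09). FBtr0074954, with spots near the background at 24 °C, read 8.78, 8.92 and 8.79 against 7.22, 7.26 and 7.25, and also differed by 1.59 (SE 0.08). The equal values of these 2 members hold for the offset of 50. With an offset of 0 the differences were 1.60 for FBtr0100293 and 2.11 for FBtr0074954, and on the signal corrected by the scanner software they were 1.59 and 3.17. FBtr0077277 (1.58), FBtr0302356 (1.55), FBtr0082107 (1.53) and FBtr0070960 (1.52) completed the 13 members above 1.5. A further 72 lay between 1 and 1.5.

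**Figure D2:**
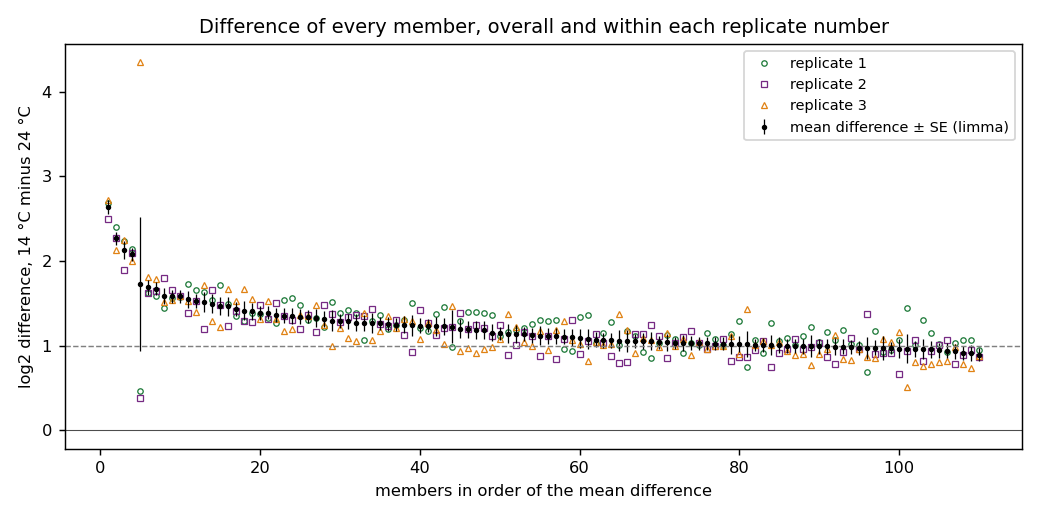
Log2 difference between 14 °C and 24 °C (y axis) for the 110 members in descending order (x axis), with the mean and its SE in black and the difference within each replicate number as open symbols. The differences fall from 2.63 to 0.90, the dashed line marks 1, and the fifth member stands out with 4.34 in replicate 3 against 0.46 and 0.39 in replicates 1 and 2.

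Only 13 of the 110 members, for 12 genes, could be given a gene symbol from the annotation used, a share of 11.8% (18.2% among all detected FBtr probes). The other 97 members, for 88 transcripts, stand under their identifiers and no role is given to them. Of the 12 genes, 4 lie on 2R, 3 on 2L, 2 on 3R, 2 on X and 1 on chromosome 4.

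Enzymes and transport proteins formed a first group among the named genes. CAH1 encodes a carbonic anhydrase, which interconverts carbon dioxide and bicarbonate. It read 9.21, 8.85 and 9.24 at 14 °C against 7.71, 7.93 and 7.95 at 24 °C, a difference of 1.24 (SE 0.12). IP3K2, a kinase that phosphorylates the second messenger inositol trisphosphate, read 11.43, 11.34 and 11.33 against 10.50, 10.19 and 10.24, a difference of 1.06 (SE 0.10). Prip encodes a water channel of the aquaporin family. It read 9.04, 9.00 and 8.84 against 7.89, 7.97 and 7.84, a difference of 1.06 (SE 0.08). In each of these 3 genes the distance between the lowest array at 14 °C and the highest at 24 °C was larger than the spread within either group. The rule asked for groups that do not overlap, so this follows in part from the choice.

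Genes for signalling and for nuclear proteins were a second group. The transcript of trk, which encodes the ligand of the receptor tyrosine kinase Torso in the patterning of the embryo's ends, was read by 2 members. The first read 9.27, 9.24 and 9.19 against 8.23, 8.13 and 8.21, and the second 9.33, 9.29 and 9.20 against 8.32, 8.21 and 8.21. Their differences, 1.04 and 1.02, were nearly equal. The member of pan, which encodes the TCF-family factor through which Wingless signalling acts on its target genes, read 12.47, 12.16 and 12.42 against 11.46, 11.36 and 11.05, a difference of 1.06 (SE 0.12). Another transcript of pan, FBtr0112657, had 2 probes with smaller differences. One read 10.41, 10.67 and 10.71 against 10.38, 10.27 and 10.19 (0.32, SE 0.10), and the other had a difference of 0.21 (SE 0.10) with groups that overlap. Alh, which encodes a chromatin protein with PHD fingers, read 9.84, 9.54 and 9.57 against 8.55, 8.68 and 8.67, a difference of 1.02 (SE 0.10).

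Pabp2 encodes the nuclear poly(A)-binding protein, which takes part in polyadenylation. Its member read 13.37, 13.27 and 13.27 against 12.15, 12.11 and 12.23, a difference of 1.14 (SE 0.08). The second Pabp2 probe, under the same transcript identifier, read 14.67, 14.47 and 14.95 against 14.65, 14.69 and 14.52. There the groups overlap and the difference was 0.08 (SE 0.12). The doubling thus was measured by 1 of the 2 Pabp2 probes.

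Structural proteins were represented by Cpr47Eb and Msp300. Cpr47Eb, which encodes a protein of the cuticle, read 11.76, 11.82 and 11.72 against 10.59, 10.55 and 10.45, a difference of 1.23 (SE 0.08). Msp300 encodes a very large protein with spectrin repeats that links nuclei to the cytoskeleton, best known from muscle. Its member, for FBtr0303384, read 10.61, 10.32 and 10.88 against 9.86, 9.46 and 9.45, a difference of 1.02 (SE 0.15). Its SD at 14 °C was 0.28, against a median of 0.14 over the members, and replicate 1 was the highest array at 24 °C. Of the same transcript, 2 more probes had differences of 0.35 and 0.25, with groups that overlap. Of other Msp300 transcripts, 3 probes had differences of 0.06, 0.04 and -0.0027.

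CG18536 and CG34305 were the 2 remaining genes with a symbol. CG18536 read 9.04, 8.98 and 8.76 against 8.01, 7.97 and 7.96, a difference of 0.95 (SE 0.09). CG34305 was spotted 10 times per array and read 8.49, 8.41 and 8.19 against 7.43, 7.47 and 7.46, a difference of 0.91 (SE 0.09). Both were below 1 on the recomputed values and above it in the authors' values (1.05 and 1.03). With an offset of 0 the differences were 1.13 for CG18536 and 1.22 for CG34305. On the signal corrected by the scanner software they were 1.45 and 1.80.

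Of the 100 transcripts, 66 had a single probe on the array and 34 had several. In 10 transcripts, 2 probes were members, and the differences of such a pair lay 0.02 to 0.16 apart (median 0.05). Both probes of a pair had to meet the rule, so that their closeness follows in part from the choice. One of these pairs was FBtr0073291, whose probes read at different brightness. The first one read 15.64, 15.85 and 15.82 against 14.38, 14.35 and 14.50 (1.36, SE 0.09), and the second 11.96, 12.29 and 12.83 against 10.98, 11.07 and 11.36 (1.22, SE 0.19).

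In 25 transcripts, 36 probes besides the members were present. Of these, 11 were not above background on all arrays and 25, for 18 transcripts, were. The differences of the 25 ranged from -0.48 to 0.97 with a median of 0.43. In 15 of them the 3 arrays at 14 °C lay above the 3 at 24 °C, against 19.5% of the probes tested. They share their transcripts with members, so nothing is read from this count. Of the 25 probes, 0 reached 1, 12 lay between 0.5 and 1 and 6 were below 0. These probes are the ones that the rule did not take, so that their lower values follow in part from the choice. FBtr0077941 is an example of probes that moved alike. Its member differed by 1.00 (SE 0.08), a brighter probe by 0.96 (SE 0.08) and another one by 0.85 (SE 0.17).

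In 6 transcripts the probes differed by more than 1. For FBtr0308651 the member read 9.12, 9.03 and 9.34 at 14 °C against 7.82, 7.91 and 8.03 at 24 °C (1.25, SE 0.10). The second probe of this transcript read 7.53, 7.71 and 7.50 against 8.17, 8.07 and 7.93, which is lower at 14 °C by 0.48 (SE 0.09) without overlap. FBtr0085839 showed the same pattern. Its member read 10.22, 10.12 and 9.81 against 8.93, 8.69 and 8.74 (1.27, SE 0.12), while its second probe read 13.46, 13.50 and 13.43 against 13.81, 13.84 and 13.78, a difference of -0.34 (SE 0.07). For FBtr0100293, one of the 10 largest differences, the second probe read 13.47, 13.82 and 13.65 against 13.78, 13.62 and 13.77, and the groups overlap (-0.08, SE 0.10). FBtr0080513 (0.03 and -0.11 besides 1.00), FBtr0334320 (-0.07 and -0.12 besides 0.99) and FBtr0088785 of Pabp2 were the other three. The positions of the probes along these transcripts were not analysed here.

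**Figure D3:**
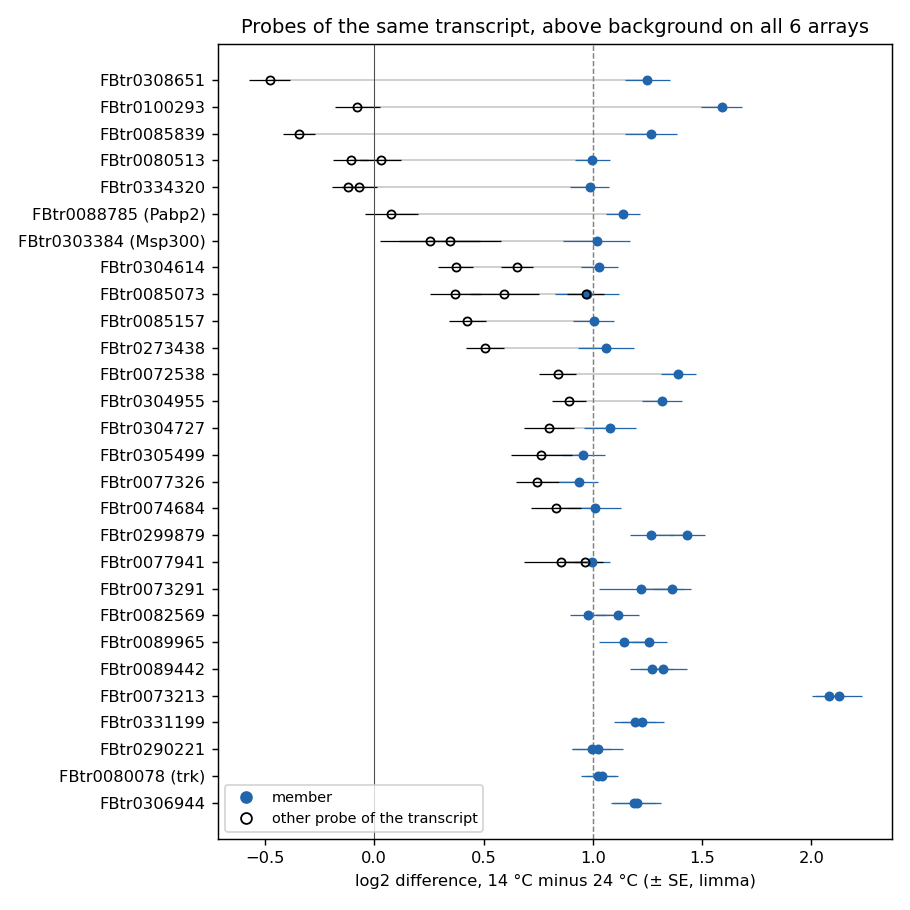
Log2 difference between 14 °C and 24 °C with its SE (x axis) for all probes above background on the 6 arrays of those transcripts that have several such probes (y axis), filled for members and open for other probes. At the top the probes of 6 transcripts lie more than 1 apart, and at the bottom the 2 members of each pair lie within 0.16 of each other, as probes that both had to meet the rule.

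The spread between arrays was larger at 14 °C than at 24 °C. The median SD over the 3 arrays was 0.14 at 14 °C and 0.06 at 24 °C for the members, and the SD was larger at 14 °C in 77.3% of them. Among all detected FBtr probes the medians were 0.13 and 0.07, and 78.3% had the larger SD at 14 °C. The widest spread at 14 °C was that of the dimmer FBtr0073291 probe, with an SD of 0.44. FBtr0074953 came next, with 10.29, 9.87 and 9.46 at 14 °C against 8.84, 8.94 and 8.95 at 24 °C. Within its replicate numbers its difference was thus 1.45, 0.93 and 0.52. Repeated spots of a member on one array, present for 48 members, had a median SD of 0.08, while 62 members were spotted once.

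Within replicate numbers, the members' median difference was 1.22 in replicate 1, 1.12 in replicate 2 and 1.08 in replicate 3. As replicate 1 had a slide of its own, 1.22 is also the value within the first slide, and that within the second was 1.10. All 110 members were higher at 14 °C in each of the 3 replicate numbers. This follows from groups that do not overlap, which the rule asked for. A difference of 1 or more was present in 96 members in replicate 1, 74 in replicate 2 and 73 in replicate 3, and in 47 members in all 3. The gap between the lowest array at 14 °C and the highest at 24 °C had a median of 0.91 and was 1 or more in 40 members. The members were chosen on the mean of these differences, and shares over all detected probes are not given. Nothing is therefore read from these counts. The smallest gap, 0.39, was that of FBtr0330397.

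At 24 °C the spots of the members were on the whole dimmer than those of all detected probes. The rule asks for a rise from 24 °C and thus favours a low value there. The members' median brightness at 24 °C was 8.83, against 10.42 over all 13545 detected FBtr probes, of which 28.4% lay below 8.83. Below 8 lay 24.5% of the members and 17.5% of all, and at 12 or more 8.18% of the members and 26.5% of all. At 14 °C the members' median was 10.07, against 10.42 over all, of which 45.0% lay below 10.07. Spot brightness depends on the probe as well as on the amount of a transcript, so these values say how far the spots stood above background and not how abundant the transcripts were.

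**Figure D4:**
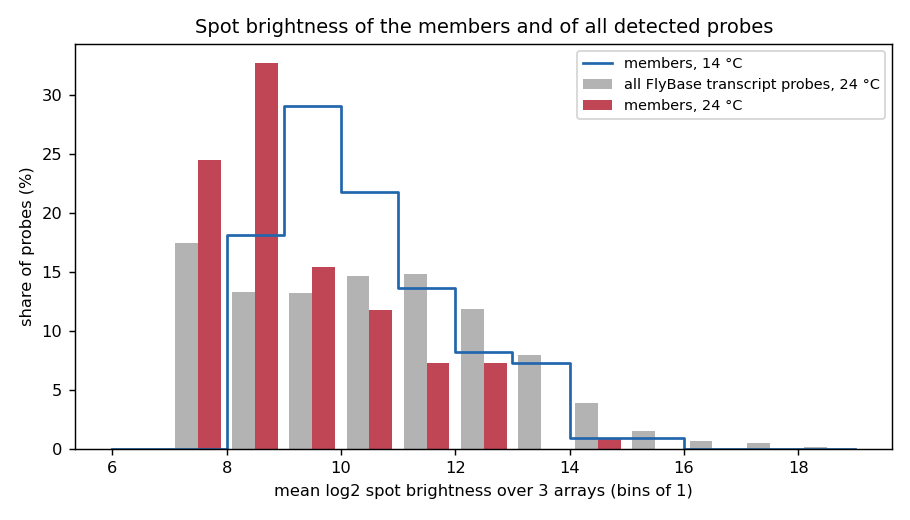
Share of probes (y axis, %) by mean log2 spot brightness over 3 arrays in bins of 1 (x axis), in grey for all 13545 detected FlyBase transcript probes at 24 °C, in red for the 110 members at 24 °C and as a blue line for the members at 14 °C. At 24 °C the members were most often found between 8 and 9, with 32.7% of them, where 13.3% of all probes lie.

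At the threshold of the rule, values did not separate into groups. In the authors' processed values 4 members had a difference of exactly 1. These were FBtr0087504, FBtr0300406, FBtr0071441 and FBtr0088712, with recomputed differences of 0.91, 0.90, 0.97 and 0.94. The 3 probes just outside were those of FBtr0083582 (0.997), FBtr0088555 (0.993) and FBtr0074315 (0.993), with recomputed differences of 0.95, 0.89 and 0.96. FBtr0088555 belongs to ODA-Dnal1. Within 0.1 of the threshold lay 39 members above it and 47 probes below it whose groups did not overlap. The 47 include the 2 probes of the list to be left out that did not meet the rule.

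Genes of central cellular processes were compared with the members through 15 lists, the 14 that the study curated and one of heat shock proteins. They hold 767 probes of the array, of which 753 were tested and 0 are members. In limma, 3 of the 753 were called higher at 14 °C (against 0.591% of all tested probes) and 5 lower (against 0.341%). The 3 that were higher are CG9743, of lipid metabolism, with a difference of 1.85, RpLP1, of the cytoplasmic ribosome, with 1.39, and Ucrh, of oxidative phosphorylation, with 1.25. All 3 are among the 7 probes that had been left out, so that the absence of listed probes from the members follows from the choice. Lists and members were compared by probe. Whether other probes of listed genes are among the 97 members without a symbol was not tested. The list medians ranged from -0.82 for heat shock proteins to 0.20 for lipid metabolism, against -0.01 over all tested probes.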

How the data were processed

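RNA of HB10 cells was read on 6 single-colour Agilent arrays (Drosophila V2, Cy3), 3 per temperature. The authors deposited the scanner output, in which spot and background brightness is an intensity on a linear scale, extracted per the file headers with Agilent Feature Extraction 10.7.3.1, together with yes or no flags. The authors also deposited log2 values per probe, made per the study's methods with normexp, quantile normalization, a surrogate variable adjustment and medians of repeated spots. These log2 values chose the members.

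Here, median spot intensities were corrected with normexp (offset 50). This column was used because the files hold no mean spot intensity. Control spots and spots with a feature outlier flag were left out, log2 values were quantile-normalized, and repeated spots of a probe were reduced to their median. Probes well above background (at least 50% of their spots) on at least 2 arrays of a group were tested with limma (lmFit and eBayes, two-sided, Benjamini-Hochberg). Called means an adjusted p under 0.01 and at least 2-fold. The fit was tested on simulated data. With 6 arrays, their number limits the precision. The replicates are named biological by the labels, without saying which aliquots they came from, so a p-value measures the spread between these samples.

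Replicate numbers are shared between the groups. The deviations of same-numbered arrays from their group means correlated across probes with r = 0.20, 0.30 and 0.39. Same-numbered arrays share a slide, and differently numbered arrays are not compared here. These values alone therefore do not settle whether the numbers pair the samples. The labels do not say what a number marks. Symbols came from the study's probe annotation, of which only part was read, and from the Release 6 plus ISO1 MT RefSeq table. No coordinates are given, since the arrays were annotated on another build. The text names the members with a symbol, the 10 largest differences, the probes next to the threshold and the members whose transcript has further probes, and those above 1.5 were added after their values were seen. The members and lists were chosen with earlier results of these data known. R 4.3.3, limma 3.58.1, the package data.table (version 1.17.8), Python 3.11.15, pandas 2.3.3 and matplotlib 3.10.9 were used.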

Additional observations from a re-analysis of the deposited data

How the results depend on the processing

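All 110 members kept a higher level at 14 °C under the 16 alternatives planned and 1 added after seeing the data. The alternatives use the arrays on which the members were chosen, so this follows in part from the choice. The authors' values that chose the members are among the alternatives, and the replicate and slide blocks left the differences unchanged. The median difference was 1.45 with the scanner software's corrected signal, 1.20 with an offset of 16, 1.26 with an offset of 0, and 1.65 with median scaling of the arrays. Median scaling moved the median of all tested probes by 0.41, and scaling over spots above background moved it by -0.17. Over spots above background the members' median was 1.07, with 65 of 110 at or above 1 and 103 without overlap, against 110 and 109 with median scaling. The share of all tested probes without overlap is not given for these settings, so nothing is read from 103 and 109. Relative to the shifts the members' median was 1.24 under both, which differ only by a constant per array. Under both scalings limma called 0 of 110 members, with 109 and 99 at an unadjusted p under 0.05, and also 0 of all tested probes. The calls over all tested probes, 111 higher and 64 lower, became 387 and 260 with the corrected signal and 182 and 108 with an offset of 0. Leaving out each array in turn gave medians of 1.09 to 1.16, 78 to 94 members at or above 1 and 110 without overlap each time. Between 76 and 93 members were called, against 0.554 to 0.702% of all tested probes called higher. Groups without overlap cannot come to overlap when an array is left out, so the 110 was fixed beforehand. With the replicate block 84 members were called, as without it, and of all tested probes the 175 called without the block were called with it too, along with 1 more. The block changed no other call. The added alternative, which also left out spots with a background outlier flag, touched 8 members. It gave a median of 1.11 with 84 members at or above 1. Of the members 82 were called, against 0.596% of all tested probes called higher. There 4 members with a single spot lacked an array and were not tested, and FBtr0330397 was at 0.53. The offset, which weighs most on dim spots, moved the members at or above 1 from 85 to 104 at 16 and to 110 at 0.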

Other observations

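In 3 further detected FBtr probes the authors' values differed by 1 or more while the groups overlapped, and they are no members. The probe of mt:ND3, which encodes a subunit of respiratory complex I in the mitochondrial genome, read 14.67, 14.49 and 15.23 at 14 °C and 13.68, 12.91 and 14.65 at 24 °C, a difference of 1.05. Replicate 3 was the highest array in both groups.

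The other two resemble FBtr0330397 in that 1 array at 24 °C read far below the rest in the authors' values. FBtr0302054 had 8.92, 9.01 and 9.22 at 14 °C and 8.97, -0.12 and 9.11 at 24 °C there, a difference of 3.06. On the array with -0.12 its uncorrected brightness was 1996 and its local background 10213. FBtr0082139 had 7.07, 7.48 and 7.02 against 7.30, 7.37 and 3.57, a difference of 1.11, which was -0.11 in the recomputed values. On the array with 3.57 its local background was 1907.5. In both cases the scanner software had marked the background as an outlier.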
